A study of Mus musculus with 20 samples.

Results

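The Yippee family was followed through mouse hippocampal cultures that had received a short glutamate pulse with zinc removed, with zinc added, or with glutamate alone. Its 5 members, Ypel1, Ypel2, Ypel3, Ypel4 and Ypel5, were taken by gene symbol from a table of 24419 genes, and all 5 passed the expression filter that left 14411 genes for testing. Ypel1 was picked because it was higher with the zinc chelator. Its values in any comparison with the chelator or glutamate libraries on either side are therefore given as a description with no test. The remaining members were taken because they belong to its family.

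Each of 4 groups held 5 libraries of polyadenylated RNA from dissociated hippocampal cells of C57BL6 embryos (embryonic day 18), grown to day 10 in vitro. All cultures, controls included, came from tissue pooled over 4 embryos and were given cytosine arabinoside, which kills dividing cells, early in culture. The TPA cultures received the zinc chelator tris(2-pyridylmethyl)amine, abbreviated TPA, at 10 µM together with 50 µM glutamate, after a brief preincubation in the chelator. The zinc cultures had 50 µM glutamate with 10 µM ZnCl2, the glutamate cultures had 50 µM glutamate, and the control cultures had imaging medium alone. The pulse lasted 2 min and RNA was taken after 90 min of recovery. No group with TPA or zinc but without glutamate was analysed here, so neither agent can be told apart from its combination with glutamate. The labels speak of 5 biological replicates per condition, and as the tissue was pooled, a p-value covers only how much these particular libraries vary.

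Yippee proteins are small, strongly conserved proteins named after a Drosophila gene. Their cysteines are predicted to hold a zinc ion in a fold shared with cereblon, Mis18 and methionine sulfoxide reductases of the B class. Mouse Ypel1 was linked to cell shape in fibroblasts, human YPEL3 to growth arrest downstream of p53, and human YPEL5 to the CTLH ubiquitin ligase, where it binds RANBP9 and RANBP10.

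The zinc-binding cysteines are the feature that ties this family to a zinc experiment, so the coding stretch that spans them is shown for each member. A search for a pair of C-N-N-C motifs (cysteine, any 2 residues, cysteine) with 52 residues between them found exactly 1 such pair in each coding sequence. The stretches of 180 bases run 5′ to 3′ on the coding strand and are from GENCODE M21 transcripts (GRCm38, the same assembly as mm10), with the 4 cysteine codons of the motifs in capitals.
Ypel1: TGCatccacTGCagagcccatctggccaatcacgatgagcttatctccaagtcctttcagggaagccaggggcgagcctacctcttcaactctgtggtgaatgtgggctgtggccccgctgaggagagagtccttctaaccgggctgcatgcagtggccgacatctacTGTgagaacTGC
Ypel2: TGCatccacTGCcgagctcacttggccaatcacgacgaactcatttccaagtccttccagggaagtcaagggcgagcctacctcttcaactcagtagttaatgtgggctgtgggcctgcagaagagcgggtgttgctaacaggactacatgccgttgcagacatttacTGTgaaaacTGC
Ypel3: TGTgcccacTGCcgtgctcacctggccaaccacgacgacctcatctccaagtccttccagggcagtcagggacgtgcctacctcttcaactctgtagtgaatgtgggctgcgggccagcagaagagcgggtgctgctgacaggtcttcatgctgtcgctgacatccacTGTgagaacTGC
Ypel4: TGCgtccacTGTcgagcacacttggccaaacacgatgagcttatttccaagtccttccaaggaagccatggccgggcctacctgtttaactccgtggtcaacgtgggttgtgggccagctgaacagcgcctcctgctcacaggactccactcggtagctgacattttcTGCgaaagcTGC
Ypel5: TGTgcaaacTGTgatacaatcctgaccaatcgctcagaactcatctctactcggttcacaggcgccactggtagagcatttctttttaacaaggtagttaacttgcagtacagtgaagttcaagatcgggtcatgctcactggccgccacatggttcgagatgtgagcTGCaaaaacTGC

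Over this stretch Ypel1 and Ypel2 encoded the same residue at 60 of 60 codons, although 82.8% of their bases were identical. Ypel1 shared 57 of 60 encoded residues with Ypel3, 52 of 60 with Ypel4 and 30 of 60 with Ypel5. Ypel5 was thus the most distant member, with 27 to 30 of 60 residues shared with any other. The longest run of bases that any pair of these transcripts had in common was 25 bases, between Ypel1 and Ypel3, and Ypel1 and Ypel2 shared at most 23. The counting of reads with several matches is not described in the labels.

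In the deposited annotation (mm10) Ypel1 lies on the + strand of chromosome 16 at 17070139-17086736, Ypel2 on the - strand of chromosome 11 at 86936425-86993762, Ypel3 on the + strand of chromosome 7 at 126776975-126780514, Ypel4 on the + strand of chromosome 2 at 84734204-84737877, and Ypel5 on the + strand of chromosome 17 at 72836704-72851195. The exons of Ypel1 overlap those of Ppil2, a cyclophilin family gene on the opposite strand, by 181 bases. The labels describe stranded libraries but not whether counting used the strand, so reads in that overlap may belong to either gene. Ppil2 averaged 56.1 CPM (counts relative to library size, after TMM scaling) over all libraries, and its log2 fold change was -0.01 (SE 0.05) for TPA against glutamate and -0.04 (SE 0.05) for TPA against zinc.

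The promoter of Ypel1 is shown because this member has the family's largest difference between TPA and zinc cultures. The 300 bases (RefSeq, GRCm38.p6, + strand, chr16:17069889-17070188) have a GC content of 72.7%, and capitals mark the single match to a metal response element core, the motif bound by the zinc sensor MTF1.
Ypel1 promoter: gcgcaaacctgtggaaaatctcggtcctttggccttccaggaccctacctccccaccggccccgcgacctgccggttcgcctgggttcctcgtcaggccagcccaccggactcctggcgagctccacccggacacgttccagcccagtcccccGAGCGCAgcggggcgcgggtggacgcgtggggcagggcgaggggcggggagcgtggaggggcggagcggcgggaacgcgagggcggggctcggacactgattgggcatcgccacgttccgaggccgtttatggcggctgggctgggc

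That match, on the reverse strand 97 bases before the start, was found by searching both strands for TGCACNC or TGCGCNC, letters that 25.7% of 32851 promoters of the same length also hold. Of the other members, Ypel4 alone had a match to any motif searched, an AP-1 motif (TGANTCA, in 7.81% of promoters) 154 bases before its start. No member's window held TGACGTCA (the cAMP response element, in 1.79% of promoters) or GCGTGGGCG (the EGR motif, in 0.612%). A match is a description of letters and not of a bound site.

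The cultures were neuron-rich by their markers, and the glutamate pulse was visible in the RNA. Library totals ran from 28692470 to 40934630 counts. The summed level of 5 neuron markers was 4367 to 4638 CPM in TPA, 4250 to 4917 in zinc, 4130 to 4568 in glutamate and 4310 to 4622 in control cultures. The summed level of 5 astrocyte markers was 155 to 179 CPM in TPA, 138 to 188 in zinc, 135 to 193 in glutamate and 141 to 192 in control cultures. No blood marker passed the filter. Of the immediate early genes, Fosb rose in the 3 stimulated groups pooled against control by 1.07 on the log2 scale (SE 0.10, edgeR quasi-likelihood test, Benjamini-Hochberg adjusted p = 9.49e-06). Mt1 and Mt2, metallothioneins that bind zinc, had log2 fold changes of -0.20 (SE 0.06, adjusted p = 0.0978) and -0.36 (SE 0.08, adjusted p = 0.0540) for TPA against zinc. Their values were -0.001 (SE 0.06) and -0.02 (SE 0.08) for TPA against control, and 0.20 (SE 0.06) and 0.34 (SE 0.08) for zinc against control. Relative to control, both genes thus differed more in zinc than in TPA cultures. TPA against glutamate gave -0.07 (SE 0.06) and -0.19 (SE 0.08). Slc30a1, also checked, had -0.06 (SE 0.06) for TPA against zinc. Whether the chelator lowered zinc in the cells was not tested. The libraries are bulk samples, in which fewer cells of a type and less RNA per cell cannot be told apart.

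Ypel3 was the most abundant family member and Ypel2 the least. In the authors' TPM (a level per gene length), Ypel3 averaged 171 TPM over the 20 libraries, Ypel1 102, Ypel5 81.9, Ypel4 25.3 and Ypel2 13.5. Ypel3 thus stood above 90.9% of tested genes and Ypel2 above 40.3%. Ypel3 exceeded Ypel1 in 20 of 20 libraries with no overlap in range, and Ypel5 exceeded Ypel4, and Ypel4 Ypel2, in the same way. Ypel1 exceeded Ypel5 in 19 of 20 libraries, and the ranges of these neighbours overlapped. The same order of mean TPM held in each of the 4 groups.

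**Figure D1:**
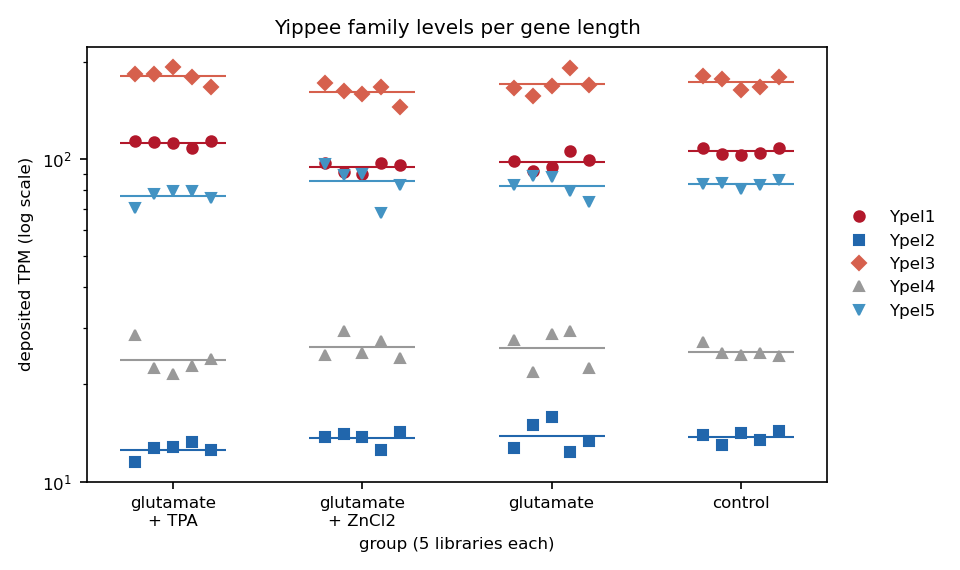
Level of each Yippee gene in TPM (log axis) in the 5 libraries of each group; points are libraries and lines are group means. Ypel3 is at 145 TPM or more in every library and Ypel2 at 15.8 TPM or less, while the points of Ypel1 and Ypel5 come close in the zinc cultures.

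Summed over the family, the level was 406 ± 9.90 TPM in TPA, 380 ± 15.99 in zinc, 391 ± 17.6 in glutamate and 402 ± 12.2 in control cultures (SD, n = 5 each). Ypel3 and Ypel1 supplied 43.5% and 26.0% of the family's TPM, Ypel5 20.8%, Ypel4 6.41% and Ypel2 3.41%.

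Ypel1 was highest in TPA cultures, next in control cultures, and lowest in zinc and glutamate cultures. In TPA cultures it had 115, 111, 113, 108 and 113 CPM, and in zinc cultures 97.0, 89.7, 89.9, 97.8 and 96.6 CPM. In glutamate cultures it had 97.3, 91.0, 91.7, 106 and 99.8 CPM, and in control cultures 107, 104, 103, 106 and 109 CPM. Every TPA library was thus above every zinc library and every glutamate library. In either direction, groups did not overlap for 3.12% of all genes in TPA against zinc and 1.03% in TPA against glutamate. The TPA and control ranges of Ypel1 overlapped, since the lowest TPA library lay between control libraries. Means were 112 ± 2.60 CPM in TPA, 94.2 ± 4.06 in zinc, 97.2 ± 6.24 in glutamate and 106 ± 2.40 in control cultures (SD, n = 5 each).

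**Figure D2:**
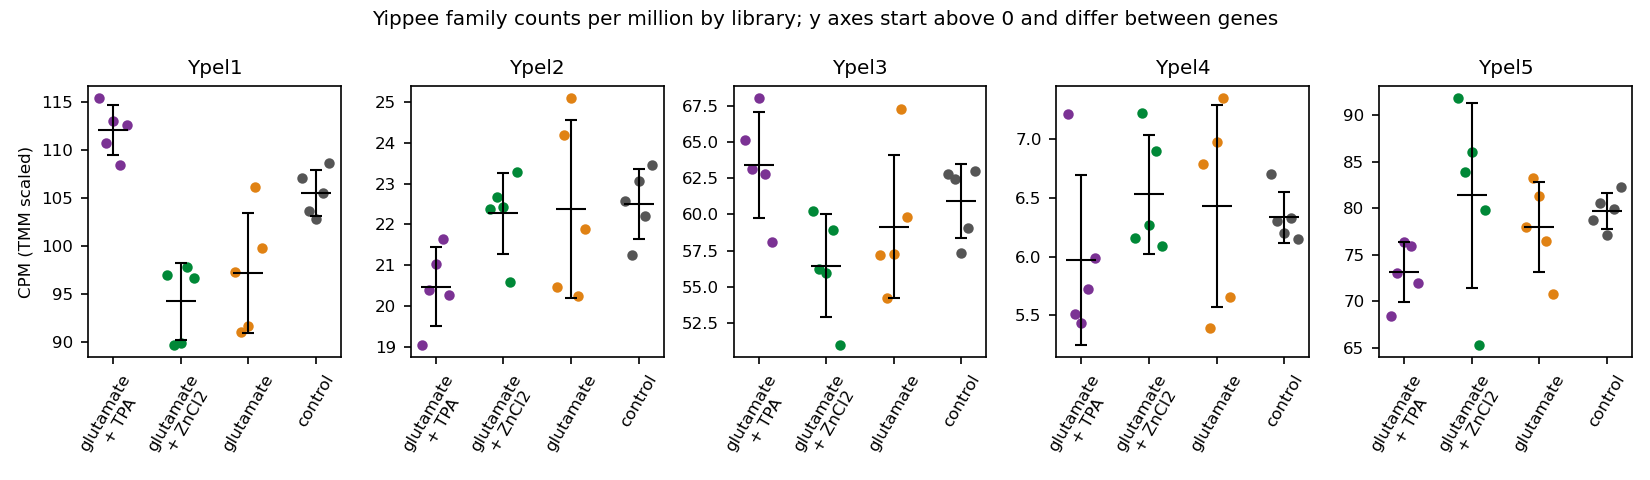
CPM of each member in each library, grouped as TPA, zinc, glutamate and control cultures from left to right; points are libraries, black marks the mean ± SD (n = 5). The Ypel1 panel shows TPA libraries at 108 to 115 CPM above all zinc libraries at 89.7 to 97.8 CPM; in the other panels the groups overlap, except for Ypel5 between TPA and control cultures.

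As a description, Ypel1 was 1.15-fold higher in TPA than in glutamate cultures (log2 fold change 0.21, SE 0.04) and 1.19-fold higher in TPA than in zinc cultures (0.25, SE 0.04). It was 1.06-fold higher in TPA than in control cultures (0.09, SE 0.04). The value was -0.04 (SE 0.04) for zinc against glutamate (0.00443 with glutamate replicates 4 and 5 and zinc replicate 5 left out) and -0.12 (SE 0.04) for glutamate against control. The comparisons that share the TPA or the glutamate libraries are not independent of each other.

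Zinc against control is the comparison of Ypel1 whose groups are neither the TPA cultures nor the cultures with glutamate alone. Its standard error and p-value in the main fit still draw on the spread of all libraries, those groups included. A fit of only the zinc and control libraries gave -0.16 (SE 0.04, edgeR adjusted p = 0.148), with 4 of 14117 genes called. Ypel1 was picked for a rise with chelator, and whether the zinc libraries entered that choice is not stated. Mean Ypel1 was 94.2 CPM in zinc and 106 CPM in control cultures, and every zinc library lay below every control library. Groups did not overlap, in either direction, for 2.66% of all genes tested. The log2 fold change of -0.16 (SE 0.04) did not pass the adjusted threshold in the edgeR quasi-likelihood test over all genes (unadjusted p = 0.00049, adjusted p = 0.167, rank 42 of 14411), and none of the 5 members was called in this comparison, against 0.0416% of all genes. The same counts gave adjusted p = 0.0190 with DESeq2, which called 65 of 14411 genes, and edgeR gave 0.0492 without the zinc library of replicate 4, when 100 of 14492 genes were called, against 6 with all libraries. More genes overall were thus called in both settings, and the authors' deposited table lists -0.15 with an adjusted p of 0.0180, where 0.561% of genes are called. Ypel1 zinc against control is therefore on one side of the threshold or the other by the tool and library chosen, while its log2 fold change stayed between -0.18 and -0.15 in the 22 other settings.

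Ypel3, the most abundant member and the next most like Ypel1 in pattern, was 1.12-fold higher in TPA than in zinc cultures without passing the test. It had 65.1, 63.1, 68.0, 62.8 and 58.1 CPM in TPA and 60.2, 56.2, 55.9, 58.9 and 51.0 CPM in zinc cultures, with means of 63.4 ± 3.64 and 56.5 ± 3.55 CPM (SD, n = 5 each). These ranges overlapped, because the lowest TPA library was below the highest zinc library. The log2 fold change was 0.17 (SE 0.05, edgeR adjusted p = 0.131), and with an offset for GC content it was 0.10 (SE 0.04). Against glutamate cultures, at 59.1 ± 4.93 CPM, TPA cultures differed by 0.10 (SE 0.05, edgeR adjusted p = 0.718). With 3 libraries left out for their distance from their group mean (glutamate replicates 4 and 5 and zinc replicate 5) that value was 0.17 with an adjusted p of 0.0457, in a fit that called 551 of 14550 genes, against 0 with all libraries. Zinc against control gave -0.11 (SE 0.05, edgeR adjusted p = 0.469), or -0.07 with the GC offset, where control cultures had 60.9 ± 2.55 CPM.

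Ypel5, the most diverged member, leaned the other way. It had 68.4, 73.1, 76.4, 76.0 and 72.0 CPM in TPA and 91.8, 83.9, 86.1, 65.3 and 79.9 CPM in zinc cultures. The zinc library of replicate 4, at 65.3 CPM, was the lowest of all 20 libraries, and the other 4 zinc libraries exceeded every TPA library. The log2 fold change for TPA against zinc was -0.15 (SE 0.06, edgeR adjusted p = 0.224). Without that library it was -0.22 (SE 0.05) with an edgeR adjusted p of 0.0112. With all libraries, an offset for GC content and a block for replicate number, it was -0.11 (SE 0.05, edgeR adjusted p = 0.283). Leaving that library out took the calls over all genes to 899 of 14492, against 74 with it, so the change in the call was not limited to Ypel5. Control cultures, at 77.2 to 82.3 CPM, all exceeded the TPA libraries. Groups did not overlap, in either direction, for 1.33% of all genes in that comparison. The log2 fold change for TPA against control was -0.12 (SE 0.06, edgeR adjusted p = 0.9999). Glutamate cultures averaged 78.0 ± 4.85 CPM.

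Ypel2, which encodes the same residues as Ypel1 across the cysteine stretch, had means of 20.5 ± 0.968 CPM in TPA, 22.3 ± 1.01 in zinc, 22.4 ± 2.19 in glutamate and 22.5 ± 0.849 in control cultures (SD, n = 5 each). Its TPA libraries, at 19.0 to 21.6 CPM, overlapped each other group. The log2 fold change was -0.13 (SE 0.06, edgeR adjusted p = 0.689) for TPA against glutamate, -0.12 (SE 0.06, adjusted p = 0.301) for TPA against zinc and -0.14 (SE 0.06, adjusted p = 1.0) for TPA against control. Ypel4 averaged 5.97 ± 0.723 CPM in TPA, 6.53 ± 0.505 in zinc, 6.43 ± 0.856 in glutamate and 6.34 ± 0.216 in control cultures (SD, n = 5 each). It is the member with the fewest counts, 157 to 294 per library, and its log2 fold change for TPA against zinc was -0.13 (SE 0.09, edgeR adjusted p = 0.517). It was -0.20 without the TPA library of replicate 1 and -0.08 without the zinc library of replicate 2.

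**Figure D3:**
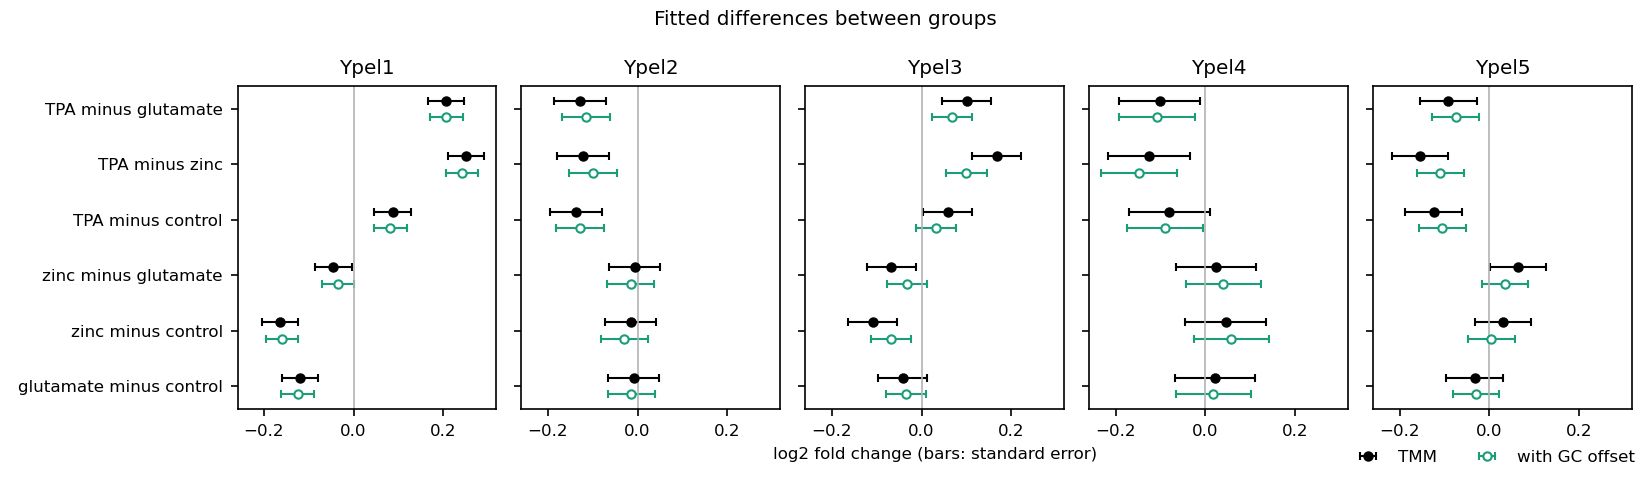
Log2 fold change of each member in 6 comparisons (first-named group minus second), with standard errors as bars; filled points are the edgeR fit with TMM scaling and open points add a GC offset. Ypel1 stays at 0.25 and 0.24 for TPA minus zinc, while Ypel3 moves to 0.10 with the offset.

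None of Ypel2 to Ypel5 passed the test in any comparison. In TPA against glutamate 0% of all genes were called by edgeR (0 of 14411, with 1030 at an unadjusted p under 0.05), and groups did not overlap for 1.03% of genes and for none of Ypel2 to Ypel5. In TPA against zinc 0.513% of genes were called, and groups did not overlap for 3.12% of genes and again for none of Ypel2 to Ypel5. Ypel1, which was picked on the TPA libraries, is left out of these counts, and nothing is read from its place among them. The share called was 0.0694% in TPA against control, 0% in zinc against glutamate (where groups did not overlap for 0.701% of genes and for no member), 0.0208% in glutamate against control and 0.0486% in the stimulated groups pooled against control. For the pooled comparison the members' log2 fold changes ran between -0.07 for Ypel1 and 0.00 for Ypel4, with standard errors of 0.03 to 0.07. A p that misses the threshold does not show that the levels were equal.

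The ratio of Ypel1 to Ypel2 sets the near-identical pair side by side within each library. In TPM it was 9.89, 8.86, 8.77, 8.18 and 9.07 in TPA cultures and 7.07, 6.45, 6.54, 7.75 and 6.77 in zinc cultures. Glutamate cultures had 7.75, 6.13, 5.96, 8.55 and 7.44, and control cultures 7.74, 7.96, 7.27, 7.76 and 7.56. The ratio thus averaged 8.95 ± 0.618 in TPA, 6.92 ± 0.524 in zinc, 7.17 ± 1.10 in glutamate and 7.66 ± 0.260 in control cultures (SD, n = 5 each). Every TPA library was above every zinc and control library, and 1 glutamate library, at 8.55, lay within the TPA range. As a description, since Ypel1 was picked on these libraries, the ratio carries no test. Ypel1 and Ypel2 varied in opposite directions with the base composition trend described below (r of 0.57 and -0.64), and the ratio combines both. In TPA, zinc and glutamate cultures, but not in control cultures, the highest ratio was in the library where that trend was highest. How often ratios of other genes separate these groups was not computed.

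Across the 20 libraries some pairs of members varied together. Ypel1 and Ypel3 had a Pearson r of 0.74 (Spearman's rho 0.82), and Ypel2 and Ypel5 an r of 0.64 (rho 0.69, permutation adjusted p = 0.00741 for r and 0.00349 for rho over 15 relations). Other pairs had negative values, with r of -0.61 for Ypel1 and Ypel2, -0.51 for Ypel1 and Ypel5 (rho -0.63), and -0.55 for Ypel2 and Ypel3 (rho -0.54, permutation adjusted p = 0.0234 for r and 0.0251 for rho). Ypel3 and Ypel5 had an r of -0.30 (rho -0.43, permutation adjusted p = 0.302 and 0.0943), and -0.08 with group means removed. Without the 2 libraries farthest in the measure, r was 0.76 for Ypel1 and Ypel3 and 0.71 for Ypel2 and Ypel5. With group means removed, r was 0.59 for Ypel1 and Ypel3 and 0.53 for Ypel2 and Ypel5. Ypel4 had no relation past the threshold with any member.

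Members also varied with the base composition trend of the libraries, though the relation of Ypel4 did not pass the threshold. A library's GC slope is the change of log2 CPM per 10 points of transcript GC content over all genes, and it averaged 0.031 in TPA, -0.035 in zinc, 0.0031 in glutamate and 0.0015 in control cultures. Across the 20 libraries it had an r of 0.57 with Ypel1 (rho 0.66), 0.75 with Ypel3 (rho 0.74, permutation adjusted p = 0.00115 for r and 0.00095 for rho), -0.64 with Ypel2 (rho -0.61, adjusted p = 0.00741 and 0.0100) and -0.74 with Ypel5 (rho -0.79, adjusted p = 0.00115 and 0.00045). Ypel4 had an r of 0.27 (rho 0.14, permutation adjusted p = 0.330 and 0.636). With group means removed, r was 0.57 for Ypel1, 0.69 for Ypel3, -0.63 for Ypel2 and -0.70 for Ypel5. For Ypel4 it was then 0.49, and its r was positive within each of the 4 groups. Without the 2 libraries of most extreme slope r was 0.72 for Ypel1, 0.79 for Ypel3, -0.62 for Ypel2, -0.74 for Ypel5 and 0.19 for Ypel4. Zinc replicate 4, the library with the lowest Ypel5, had the highest slope of the 20, at 0.101. Whether its slope and its Ypel5 level are linked was not tested. The transcripts have GC contents of 59.8% for Ypel3, 53.8% for Ypel4, 51.96% for Ypel1, 46.7% for Ypel2 and 43.5% for Ypel5, so the r of Ypel4 is below that of Ypel1 although its GC content is higher. With a GC offset in the fit the description of Ypel1 was 0.21 for TPA against glutamate, 0.24 for TPA against zinc and -0.16 for zinc against control.

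**Figure D4:**
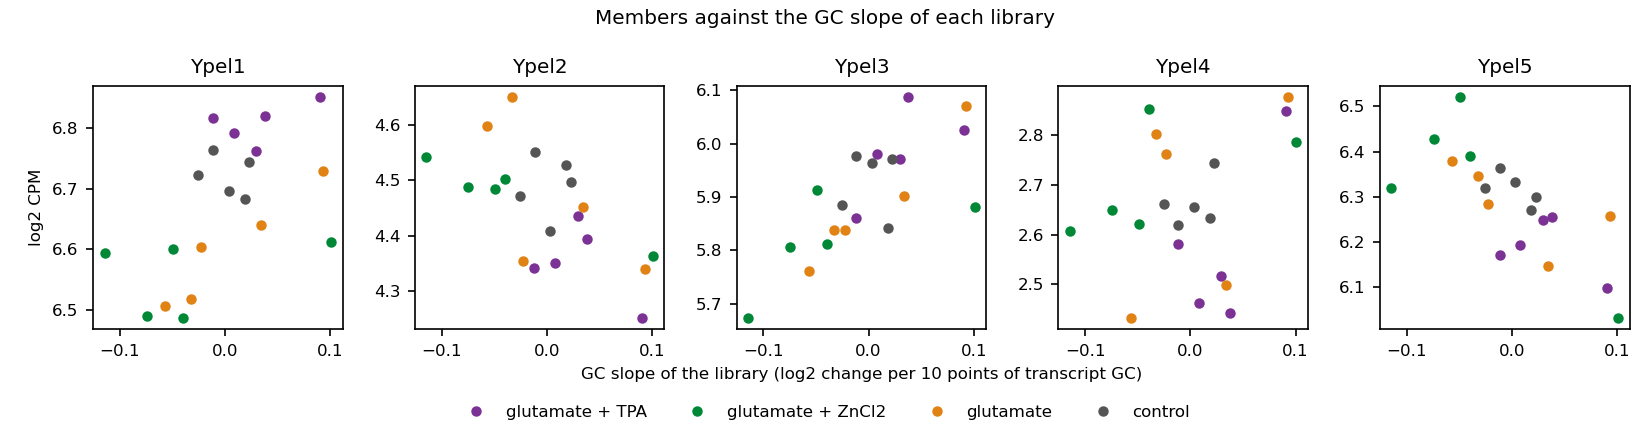
Log2 CPM of each member against the GC slope of its library; each point is 1 of 20 libraries, coloured by group. Ypel3 climbs and Ypel5 falls along the axis (r of 0.75 and -0.74), and Ypel1 in TPA libraries lies above the zinc libraries.

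The genes most like Ypel1 over the 20 libraries, of 10076 with a mean of at least 5 CPM, were Pcbp4 and Crip2 (r 0.91 each), Jup (0.91), Fblim1 (0.89) and Lztr1 (0.89). With group means removed, these values were 0.68, 0.74, 0.70, 0.70 and 0.87, in the same order. Pcbp4 encodes an RNA-binding protein, Crip2 and Fblim1 carry zinc-binding LIM domains, and Jup is the junction protein plakoglobin. The lowest were Noc3l (-0.91), Strip2 (-0.90) and Calu (-0.89), or -0.63, -0.92 and -0.84 with group means removed. Ypel3 ranked 189 of 10075. Crip2 averaged 219 CPM in TPA, 194 in zinc, 198 in glutamate and 218 in control cultures, so its TPA and control means lay close together.

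Partners of the family at the protein level did not pass the test. All 10 genes of the CTLH ubiquitin ligase list were tested and none was called in any comparison. For TPA against zinc their median log2 fold change was -0.02, against 0.00 for all genes, with 3 positive and 7 negative. Ranbp9, the scaffold that human YPEL5 binds, averaged 82.6 CPM in TPA and 89.6 CPM in zinc cultures (log2 fold change -0.12, SE 0.04, edgeR adjusted p = 0.101), and its value for TPA against glutamate was -0.08 (SE 0.03, adjusted p = 0.689). Gid4, the substrate receptor of the ligase, had 0.07 (SE 0.04) for TPA against zinc and 0.07 (SE 0.04) for glutamate against control, and Ranbp10 had -0.03 (SE 0.04) for TPA against glutamate and 0.07 (SE 0.04) for glutamate against control.

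The 7 genes with a related zinc fold were likewise all tested and none was called. Their median log2 fold change was -0.02 for TPA against zinc and -0.07 for glutamate against control, against 0.00 for all genes in each. The list had 3 positive and 4 negative values in the first comparison and 0 positive and 7 negative in the second. Of all genes, 49.7% and 48.9% were positive. Crbn, the substrate receptor cereblon, averaged 76.2 CPM in TPA and 82.7 CPM in zinc cultures (-0.12, SE 0.06, edgeR adjusted p = 0.329). Among methionine sulfoxide reductases, Msrb1 had 0.11 (SE 0.07) for TPA against zinc and Msrb2 -0.31 (SE 0.09, edgeR adjusted p = 0.778) for glutamate against control. Msrb3 had -0.28 (SE 0.19) for TPA against glutamate, at low levels of 0.530 and 0.651 CPM. Oip5, a gene of the Mis18 complex at centromeres, had 0.31 (SE 0.12, edgeR adjusted p = 0.657) for TPA against glutamate and -0.24 (SE 0.12, adjusted p = 0.950) for glutamate against control.

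The nearest tested genes on either side of Ypel2, Ypel3, Ypel4 and Ypel5 were not called in TPA against glutamate, TPA against zinc or zinc against control. Next to Ypel5, Lbh had -0.22 (SE 0.12) for TPA against glutamate and -0.20 (SE 0.12) for TPA against zinc. Beside Ypel2, Gdpd1 had -0.09 (SE 0.03, edgeR adjusted p = 0.161) for TPA against zinc and Dhx40 -0.08 (SE 0.04). Around Ypel3 and Ypel4, Gdpd3, Tbx6 and Serping1 averaged under 1 CPM, and Clp1 had 0.19 (SE 0.11) for TPA against zinc.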

How the data were processed

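The authors deposited whole-number gene counts and TPM for 20 libraries, a gene annotation whose length column is in bases, and tables of their own comparisons holding a mean normalized signal, a log2 fold change, a test score and a p-value per gene, per the file headers. The submitters' processing notes list the mouse build mm10, HISAT2 2.1.0, Trimmomatic 0.36, featureCounts, SAMtools 1.3.1, and DESeq2 1.14.1 under R 3.3.0. The authors' table for TPA and zinc runs zinc over TPA. Here counts were filtered by edgeR's default rule, scaled by TMM and fitted in 1 quasi-likelihood model with robust prior (edgeR 4.0.16, R 4.3.3) of 4 group means, with Benjamini-Hochberg adjustment over 14411 genes and a threshold of 0.05. Log2 CPM used a prior count of 2. The model was tested on simulated data. Correlations used 100000 permutations. The members, lists and settings were chosen with earlier results of these data known. From each list the genes named have the smallest p-values in TPA against glutamate, TPA against zinc and glutamate against control. Alternatives were DESeq2 1.42.0, limma-voom (limma 3.58.1), other scalings and filters, only the groups compared, omission of each library, and a replicate block. Added after seeing the data were a GC offset (lowess span 0.5), the same with the block, a fit without 3 libraries, and a non-robust prior, which was the first fit made and was replaced by the robust one. Libraries of a group differed beyond sampling noise (chi-square per degree of freedom at least 2.29), so none was counted as a duplicate. One gene is not reported here.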

Additional observations from a re-analysis of the deposited data

How the results depend on the processing

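Counts of members past the threshold include Ypel1, which was picked on the TPA libraries, so nothing is read from its calls in comparisons with TPA or glutamate cultures. For TPA against glutamate the count was 0, against 1 with DESeq2, 1 with GC offset and replicate block together, and 2 without the 3 libraries most distant from their group mean (glutamate replicates 4 and 5, zinc replicate 5). With single libraries left out it ranged from 0 to 1. Over all genes these fits called 1, 1 and 551, against 0. For zinc against control it was 0, against 1 in each of those 3 settings and 0 to 1 with single libraries left out, while calls over all genes were 65, 80 and 224 in the 3 settings and 100 without zinc replicate 4, against 6. For TPA against zinc it was 1 (Ypel1), and 1 to 2 with single libraries left out. Over all genes the calls were 74, and 5 to 899 with single libraries left out. The fit with 2 members called, without zinc replicate 4, was the one with 899. For glutamate against control it was 0, against 1 (Ypel1) without the 3 libraries, where 100 genes in all were called, against 3. Turned directions were all near 0, none past the threshold. With library size alone Ypel2 was 0.00493 for glutamate against control and Ypel4 0.00463 for stimulated against control, and with a mean of at least 1 CPM Ypel2 was 0.00205 for zinc against glutamate. Without the 3 libraries, zinc against glutamate was 0.00443 for Ypel1 and 0.0401 for Ypel3, and glutamate against control was 0.0473 for Ypel2 and 0.0200 for Ypel5. With single libraries left out, Ypel2 ranged from -0.0504 to 0.0271 for glutamate against control, from -0.0407 to 0.0341 for zinc against glutamate and from -0.0366 to 0.0126 for zinc against control. Ypel4 ranged from -0.0373 to 0.0783 for zinc against glutamate, from -0.0309 to 0.0807 for glutamate against control and from -0.0305 to 0.0164 for stimulated against control. Ypel5 ranged from -0.0554 to 0.0026 for glutamate against control and from -0.0145 to 0.101 for zinc against control. The cause of these changes was not tested.

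The replicate numbers were not taken to pair the libraries in the main fit, and whether they do was not settled. Of 30 same-numbered pairs, 15 had a correlation of deviations over 0.1. Pairs of number 5 ran from 0.0553 to 0.606 and those of number 3 from -0.174 to 0.0798. When partners were sought only in other groups, 8 of 20 libraries correlated best with their own number. The values that would arise without pairing were not computed, so these figures cannot decide it. With the replicate block, Ypel1 had -0.17 for zinc against control (edgeR adjusted p = 0.0596), and no count of members moved. Over all genes the block took the calls to 423, against 74, for TPA against zinc and to 39, against 6, for zinc against control.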
